A study of Mus musculus with 6 samples.

Results

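The alpha beta T cell receptor variable segments are the V genes of the alpha chain (Trav) and of the beta chain (Trbv), of which each T cell joins 1 per chain to a joining segment, and for beta also a diversity segment, to build its receptor. They were described here in mouse spleen by CITE-seq, which counts RNA molecules (UMIs) and antibody tags in the same droplet. The members were chosen by their measured values: a Trav or Trbv gene row was a member if it had a UMI in at least 5 T cell barcodes, a barcode being the label of 1 droplet. By this rule 84 of 163 Trav and Trbv rows were members, 22 of 35 Trbv and 62 of 128 Trav, out of 31053 genes. A further 3 Trbv and 15 Trav rows were found in 1 to 4 T cell barcodes, and 10 Trbv and 51 Trav rows in none. Just inside the limit, at 5 barcodes, were Trav7d-2, Trav6d-5, Trav15d-1-dv6d-1 and Trav22, and just outside it, at 4, Trav2 and Trav6-1. Trbv24, Trav8-2 and Trav22 are members that the annotation lists as pseudogenes.

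The study pooled the spleens of 5 C57BL/6 mice in each of 3 groups: aged mice (20 months) given recombinant mouse PF4 (platelet factor 4), aged mice (20 months) given saline and young mice (3 months) given saline. PF4 at 5 µg/mL or saline was given into the tail vein as 8 injections of 100 µL over 24 days. The deposited counts hold the 3 libraries in 1 matrix, told apart by a barcode suffix, and neither the labels nor the study's methods say which suffix belongs to which group. The libraries are therefore called 1, 2 and 3 by suffix, and age and PF4 were not compared. Each library pools 5 mice with no replicate and no label that separates the mice, so that intervals cover counting error only, and no p-value was computed. Intervals of shares are exact binomial (Clopper-Pearson) 95% intervals. Where a count is 0, the share it allows is given as 3 barcodes of the total.

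T cell barcodes, defined by at least 1 Cd3d, Cd3e or Cd3g UMI, numbered 1275, 2873 and 3385 in libraries 1, 2 and 3. By antibody tags, 516, 1171 and 1000 of them fell in a CD8 gate (CD8a count of at least 91 and CD4 count of at most 33) and 416, 883 and 1385 in a CD4 gate (CD4 count of at least 41 and CD8a count of at most 64). The RNA went with the gates: Cd8b1 had a UMI in 93.0 to 95.5% of CD8 gate barcodes and 5.77 to 7.87% of CD4 gate barcodes, and Cd4 in 0.598 to 0.90% of CD8 and 62.0 to 66.9% of CD4 gate barcodes. Cd79a, a B cell gene, had a UMI in 15.9 to 38.0% of CD8 and 14.2 to 35.5% of CD4 gate barcodes. In library 1, S100a8 of neutrophils was counted in 53.9% of CD8 and 55.0% of CD4 gate barcodes, against 6.46 to 12.1% in the other libraries. The part of other cells' RNA in the segment counts was not tested, but Trbv segments had a UMI in 0.118 to 0.489% and Trav segments in 0.103 to 0.323% of barcodes with Cd79a and Ms4a1 and no Cd3 UMI, at a median of 3224 to 3388 UMIs. Among the 5371 gated barcodes, 4 sequences occurred under more than 1 suffix.

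Receptor genes are assembled in the thymus from segments on 2 chromosomes, and a T cell with its receptor can later divide into a clone whose cells all carry the same segments. A naive repertoire spreads over many segments, while expanded clones raise the share of the few segments they carry.

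Trbv rows lie on chromosome 6 (40891229 to 41558452) and Trav rows on chromosome 14 (52427928 to 53977678) in GENCODE vM21 (GRCm38). The 7 segments on which the results turn are shown by the last 60 bases of their annotated transcript (5′ to 3′), because this end holds the conserved cysteine codon, in capitals, from which the junction with the next segment runs on.
Trbv1: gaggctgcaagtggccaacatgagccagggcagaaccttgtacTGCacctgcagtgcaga
Trbv3: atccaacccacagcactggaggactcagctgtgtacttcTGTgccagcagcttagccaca
Trbv13-3: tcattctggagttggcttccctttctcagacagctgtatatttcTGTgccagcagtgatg
Trav16: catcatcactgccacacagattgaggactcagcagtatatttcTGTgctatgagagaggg
Trav4-3: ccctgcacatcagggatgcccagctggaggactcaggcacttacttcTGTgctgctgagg
Trav19: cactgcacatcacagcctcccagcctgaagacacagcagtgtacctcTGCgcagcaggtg
Trav10: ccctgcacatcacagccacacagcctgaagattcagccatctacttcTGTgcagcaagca
They stand at chromosome 6, 40891229 to 40891885 (Trbv1), 41048290 to 41048828 (Trbv3) and 41130147 to 41130585 (Trbv13-3), and at chromosome 14, 53743104 to 53743705 (Trav16), 53598828 to 53599410 (Trav4-3), 53845234 to 53845827 (Trav19) and 53505727 to 53506286 (Trav10), all on the plus strand.

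Many Trav genes have near-identical copies in this strain, marked d or n in the symbol, and this limits which copy a read can be assigned to. The ends of Trav16 and its copies show how little separates them, with bases that differ from Trav16 in capitals.
Trav16: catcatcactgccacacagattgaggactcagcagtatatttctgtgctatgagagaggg
Trav16n: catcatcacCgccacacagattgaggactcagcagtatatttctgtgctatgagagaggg
Trav16d-dv11: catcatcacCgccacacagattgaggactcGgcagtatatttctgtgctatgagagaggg
Trav16n differed from this end of Trav16 at 1 base and Trav16d-dv11 at 2, and over the aligned transcripts at 6 of 412 and 9 of 350 bases. Trav10, Trav10n and Trav10d had the same last 60 bases and differed from Trav10 at 6 of 343 and 3 of 406 aligned bases. Of 62 Trav members, 31 had another member at 95% identity or more, against 0 of 22 Trbv members. Only members were compared, so copies below the limit are left out, such as Trav4d-3 and Trav4n-3, which were found in no T cell barcode. Values of single Trav copies are therefore uncertain, and those of Trbv segments less so. The Trbv13 genes, which alternate with Trbv12 genes along the chromosome, were further apart in sequence.
Trbv13-1: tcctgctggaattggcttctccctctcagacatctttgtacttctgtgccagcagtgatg
Trbv13-2: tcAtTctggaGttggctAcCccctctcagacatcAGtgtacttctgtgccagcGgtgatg
Trbv13-3: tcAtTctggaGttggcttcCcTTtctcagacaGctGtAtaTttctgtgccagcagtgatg
Capitals mark bases that differ from Trbv13-1, 8 in Trbv13-2 and 10 in Trbv13-3. Trbv13-2 and Trbv13-3 were 90.6% identical.

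A segment of a family was found in 21.9 to 36.5% of the T cells of a gate and library, and at equal depth a Trbv segment was found more often in CD4 than in CD8 T cells. By library, a Trbv UMI was found in 32.0%, 32.6% and 30.6% of CD8 gate barcodes and 36.5%, 35.2% and 35.5% of CD4 gate barcodes. A Trav UMI was found in 28.3%, 30.5% and 26.7% of CD8 and 21.9%, 24.0% and 27.2% of CD4 gate barcodes. CD8 gate barcodes were deeper (median 6042.5, 7101 and 5932 UMIs) than CD4 gate barcodes (3779, 4218 and 4672 UMIs). With every barcode thinned at random to 2000 RNA UMIs, a Trbv UMI was left in 11.2% (8.49 to 14.3%), 10.7% (8.93 to 12.6%) and 10.5% (8.65 to 12.7%) of CD8 barcodes. In CD4 barcodes it was left in 22% (17.8 to 26.8%), 19.4% (16.7 to 22.4%) and 18.6% (16.4 to 20.9%), so that the intervals were apart in every library. Thinning left out 129 CD8 and 408 CD4 gate barcodes that were shallower. The thinned Trav shares were 11.0%, 11.7% and 11.3% in CD8 and 12.5%, 15.5% and 13.9% in CD4 barcodes, with overlapping intervals in every library. The antibody against the TCR beta chain had median counts of 67, 72 and 88 in the CD8 gate of libraries 1, 2 and 3, and of 93, 102 and 103 in their CD4 gate. Within a gate it was alike in barcodes with and without a Trbv UMI, with medians of 78 and 76 in CD8 and 102 and 101 in CD4 barcodes. The 3′ kit reads the end of a transcript away from its V segment, so that a barcode without a UMI may still carry the segment. Both families were found together in 260 CD8 and 290 CD4 gate barcodes. More than 1 Trbv segment was found in 5.86% of CD8 and 5.65% of CD4 barcodes with any, and more than 1 Trav segment in 9.09% and 10.0%. Doublets were removed only by the ceiling of 5000 genes, and their part in these barcodes was not tested.

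Over both gates and all libraries, Trbv2 was found in 225 gated barcodes, Trbv1 in 212, Trbv13-2 in 197 and Trbv3 in 173, and the 12 leading Trbv segments (with Trbv13-1, Trbv19, Trbv16, Trbv13-3, Trbv20, Trbv15, Trbv12-2 and Trbv26) made up 83.9% of Trbv finds. Of the 212 barcodes with Trbv1, 92 came from the CD8 gate of library 2, as did 72 of the 124 with Trav16, so that this order rests in part on 1 library. Among Trav segments Trav3-3 was found in 132 barcodes, Trav16 in 124, Trav14d-3-dv8 in 91 and Trav6-7-dv9 in 84. The 12 leading Trav segments (with Trav5-4, Trav16n, Trav14-2, Trav4-3, Trav10, Trav19, Trav12-2 and Trav4-4-dv10) made up 55.5% of Trav finds. At the low end Trbv21, Trbv5 and Trbv23 were found in 6, 12 and 11 T cell barcodes.

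**Figure D1:**
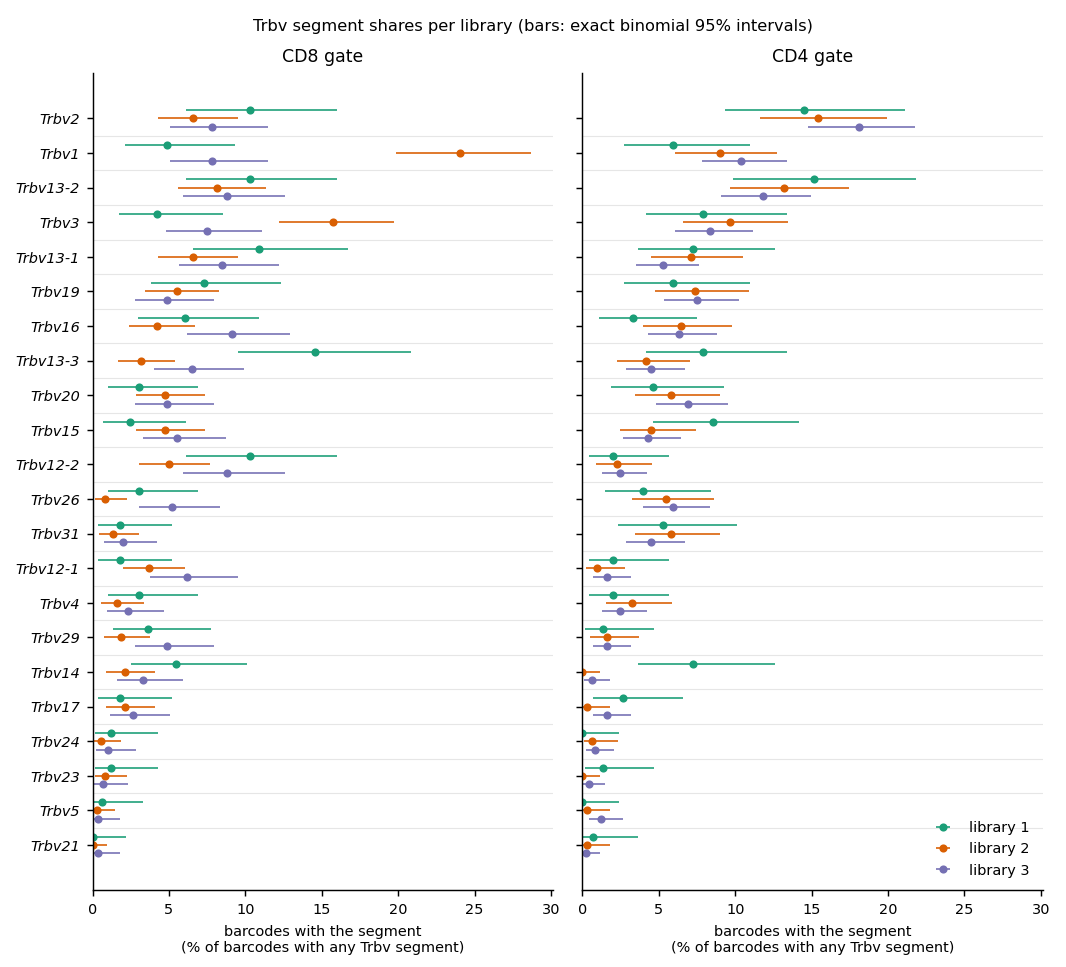
Share of barcodes with each of the 22 Trbv segments (percent of barcodes with any Trbv segment) in the CD8 gate and the CD4 gate. Colours stand for libraries 1, 2 and 3 and bars for exact 95% intervals. In the CD8 gate Trbv1 (24.1%) and Trbv3 (15.7%) of library 2 and Trbv13-3 (14.5%) of library 1 stand to the right of the other libraries, while in the CD4 gate the libraries lie close together except for Trbv14 of library 1 (7.24%).

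The CD8 gate of library 2 held larger shares of several segments than the other libraries. Trbv1 was found in 92 of its 382 barcodes with a Trbv segment (24.1%, 19.9 to 28.7%), against 8 of 165 in library 1 (4.85%, 2.12 to 9.33%) and 24 of 306 in library 3 (7.84%, 5.09 to 11.4%). Trbv3 was found in 60 (15.7%, 12.2 to 19.8%), against 7 in library 1 (4.24%) and 23 in library 3 (7.52%). Together they made up 38.6% of the Trbv finds there, whereas the leading pair of segments made up 23.6% in library 1 and 16.5% in library 3. Among alpha segments Trav16 was found in 72 of 357 barcodes of library 2 (20.2%, 16.1 to 24.7%), against 13 of 146 in library 1 (8.90%) and 20 of 267 in library 3 (7.49%). Trav4-3 was found in 34 (9.52%, 6.69 to 13.0%) of library 2, in 9 of library 3 (3.37%) and in 0 of 146 of library 1, which allows a share of up to 2.05%. Trav19 was found in 27 barcodes of library 2 (7.56%), 4 of library 1 (2.74%) and 6 of library 3 (2.25%).

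Library 1 had leading segments of its own. In the CD8 gate of library 1 Trbv13-3 was found in 24 of 165 barcodes (14.5%, 9.55 to 20.9%), against 12 in library 2 (3.14%) and 20 in library 3 (6.54%). Trav10 was found in 19 of 146 (13.0%, 8.02 to 19.6%), against 9 in library 2 (2.52%) and 6 in library 3 (2.25%). In the CD8 gate of library 3 the most frequent Trbv segment was Trbv16, in 28 of 306 barcodes (9.15%, 6.17 to 13.0%), and the most frequent Trav segment was Trav3-3, in 30 of 267 barcodes (11.2%). Trbv26 was found in 16 barcodes of library 3 (5.23%), against 5 in library 1 (3.03%) and 3 in library 2 (0.785%), and stood apart mainly by its low share in library 2.

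Members with at least 5 barcodes in a gate were compared between libraries over all its barcodes, and 8 of 65 tested (12.3%) differed between libraries in the CD8 gate, by at least 2-fold from the lowest to the highest library with intervals apart, where 6.29% of all genes did. They were Trbv1, Trbv3, Trav16, Trav4-3 and Trav19, highest in library 2, Trbv13-3 and Trav10, highest in library 1, and Trbv26, highest in library 3. Without library 2, Trav10 was the 1 segment left. With barcodes that held a Cd79a, Ms4a1 or Trdc UMI left out, 5 of the 8 were left and Trbv3, Trav19 and Trbv26 were not. Their shares in libraries 1, 2 and 3 were then 5.22%, 16.5% and 8.48% for Trbv3, 1.77%, 5.24% and 1.59% for Trav19 and 2.99%, 1.38% and 3.64% for Trbv26, from 113 to 218 barcodes with a segment of the family. Trav14n-3 (0, 3 and 13 barcodes in libraries 1, 2 and 3), Trbv12-1 (3, 14 and 19) and Trav7-5 (2, 4 and 10) were also among the 5 widest ratios of their family among segments with at least 10 barcodes in the highest library, and their intervals over gate barcodes overlapped.

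**Figure D2:**
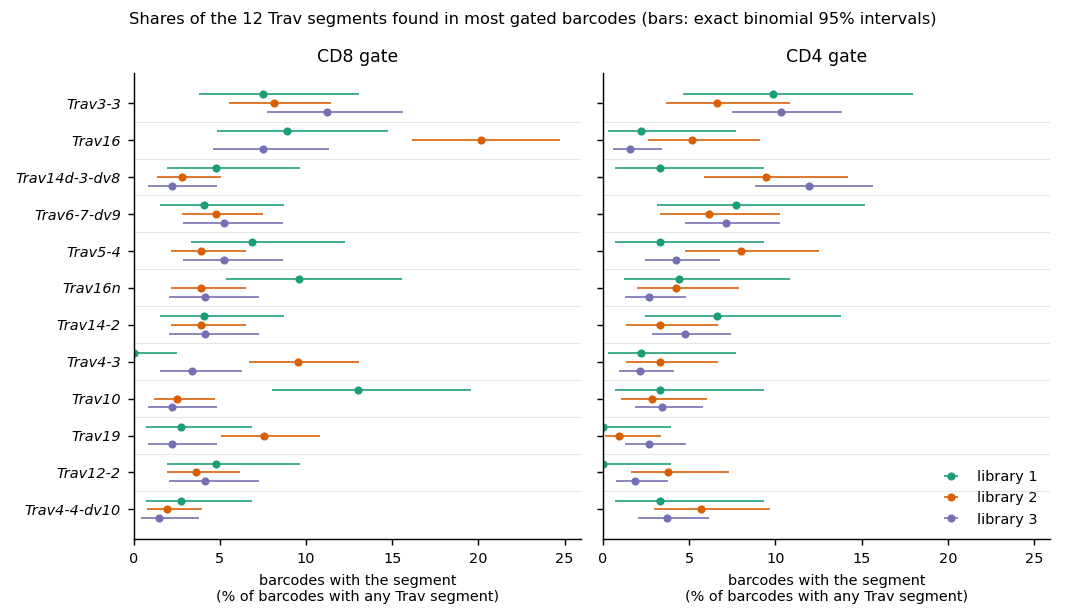
Share of barcodes with each of the 12 Trav segments found most often (percent of barcodes with any Trav segment) in the CD8 gate and the CD4 gate. Colours stand for libraries 1, 2 and 3 and bars for exact 95% intervals. Trav16 of library 2 (20.2%) and Trav10 of library 1 (13.0%) stand apart in the CD8 gate, and Trav14d-3-dv8 reaches 9.43% and 11.9% in the CD4 gate of libraries 2 and 3.

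In the CD4 gate Trbv2 and Trbv13-2 led in each library. Trbv2 was found in 22 of 152 (14.5%), 48 of 311 (15.4%) and 89 of 492 (18.1%) barcodes of libraries 1, 2 and 3, and Trbv13-2 in 23 (15.1%), 41 (13.2%) and 58 (11.8%). Of 63 members tested 2 (3.17%) differed between libraries, where 4.83% of all genes did. Trbv14 was found in 11 of 152 barcodes of library 1 (7.24%, 3.67 to 12.6%), 0 of 311 of library 2 (which allows a share of up to 0.965%) and 3 of 492 of library 3 (0.61%). In 5 barcodes of library 1, over both gates, Trbv14 was found together with Trbv13-2, the most frequent pair of Trbv segments in 1 barcode. Without barcodes with a Cd79a, Ms4a1 or Trdc UMI the Trbv14 difference was not called, with 6 of 122, 0 of 194 and 1 of 258 barcodes in libraries 1, 2 and 3. Trav14d-3-dv8 was found in 3 of 91 (3.3%), 20 of 212 (9.43%) and 45 of 377 (11.9%) barcodes. That call was lost when barcodes with more than 1 Trav segment were left out, where the shares were 3.53%, 10% and 11.0%, or when Trav copies were summed. By CD44 antibody it was found in 3 of 100 CD44-high (0.623 to 8.52%) and 42 of 277 CD44-low (15.2%, 11.2 to 19.9%) CD4 barcodes of library 3. In library 2 it was found in 4 of 101 CD44-high (3.96%) and 16 of 111 CD44-low barcodes (14.4%). In library 1 it was found in 2 of 49 CD44-high (4.08%) and 1 of 42 CD44-low barcodes (2.38%). CD44-high barcodes, by a cut fitted for each library, made up fewer of the CD4 gate in library 3 than in the others. Their part in the difference between libraries was not tested. Among Trbv segments with at least 10 CD4 barcodes in the highest library, Trbv15, Trbv16 and Trbv13-3 had the widest ratios after Trbv14, with 8.55%, 3.29% and 7.89% in library 1, 4.5%, 6.43% and 4.18% in library 2 and 4.27%, 6.30% and 4.47% in library 3. For Trav19 (0, 2 and 10 barcodes), Trav13-1 (1, 6 and 14) and Trav16 (2, 11 and 6) the intervals of the libraries overlapped.

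The evenness of use puts these shares in 1 value per library. It is given as the effective number of segments, the inverse of the chance that 2 finds are of the same segment, which equals the number of segments if all are used alike. For Trbv it was 14.4 (12.3 to 17.3) in library 1, 9.57 (8.29 to 11.3) in library 2 and 17.1 (15.8 to 18.6) in library 3 for CD8 T cells, and 14.2 (12 to 17.4), 12.5 (11.2 to 14.1) and 12.5 (11.3 to 14.0) for CD4 T cells. For Trav it was 23.3 (18.3 to 32.1), 16.1 (13.4 to 20.3) and 30.0 (25 to 37.6) for CD8 T cells, and 35.3 (25.3 to 58.2), 29.7 (24.9 to 36.8) and 26.6 (22.7 to 32.3) for CD4 T cells. CD8 T cells of library 2 thus had the lowest value for both chains, with an interval apart from both other libraries for Trbv and from library 3 for Trav. With Trav copies summed the values were 11.4 (9.57 to 14.1), 9.76 (8.56 to 11.3) and 11.6 (10.5 to 12.9), whose intervals overlapped. For CD4 T cells the intervals of the 3 libraries overlapped.

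Within the CD8 gate of library 2, use was less even in T cells with high CD44, an adhesion receptor that rises on activated and memory T cells. CD44 antibody counts were split into 2 classes in each gate and library by a fit that always returns 2. Ashman's D gives the distance between the class means relative to their spread. It was 3.766, 3.733 and 3.099 in the CD8 gate of libraries 1, 2 and 3. In the CD4 gate it was 2.15, 2.287 and 2.09, so that the classes were less separated there. CD44-high barcodes made up 73.6%, 68.7% and 32.1% of the CD8 gate and, among CD4 T cells, 60.8%, 52.0% and 27.7%. In CD44-high CD8 barcodes the effective number of Trbv segments was 13.6 (11.1 to 17.7) in library 1, 6.63 (5.58 to 8.17) in library 2 and 17.5 (14.6 to 22) in library 3. In CD44-low CD8 barcodes it was 17.0 (11.9 to 29.6), 15.8 (13.1 to 20.1) and 16.8 (15.2 to 18.9). Split at the median CD44 count instead, it was 10.6, 5.92 and 18.1 in CD44-high and 16.9, 15.5 and 17.0 in CD44-low CD8 barcodes. Library 1 thus also had a lower value in CD44-high barcodes by that split. The effective number of Trav segments was 20.4 (15.5 to 30.0), 11.7 (9.56 to 15.1) and 36.9 (26.9 to 58.3) in CD44-high CD8 barcodes. In CD44-low CD8 barcodes it was 35.8 (from 16.7, with no upper limit), 29.9 (21.4 to 49.9) and 25.4 (19.9 to 35.1), the first from 31 finds. In the CD4 gate the intervals of CD44-high and CD44-low barcodes overlapped in every library and for both chains.

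**Figure D3:**
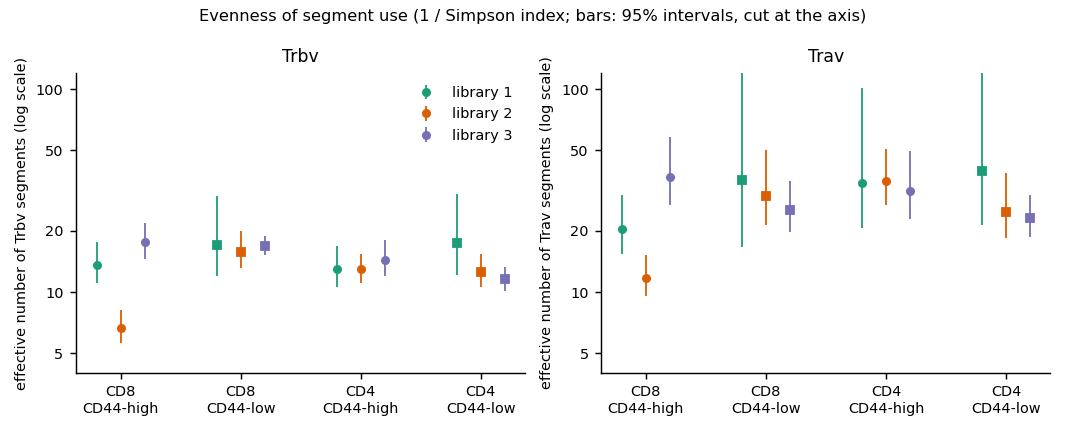
Effective number of Trbv and of Trav segments (log scale) in CD44-high (circles) and CD44-low (squares) barcodes of the CD8 and the CD4 gate, for libraries 1, 2 and 3, with bars for 95% intervals. CD44-high CD8 barcodes of library 2 have the lowest value of each plot, 6.63 for Trbv and 11.7 for Trav.

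Segment by segment, Trbv1 was found in 87 of 272 CD44-high (32.0%, 26.5 to 37.9%) and 5 of 110 CD44-low (4.55%, 1.49 to 10.3%) CD8 barcodes of library 2 with a Trbv segment. Trbv3 was found in 54 (19.9%, 15.3 to 25.1%) and 6 (5.45%, 2.03 to 11.5%) of them. Trav16 was found in 64 of 260 CD44-high (24.6%, 19.5 to 30.3%) and 8 of 97 CD44-low barcodes (8.25%, 3.63 to 15.6%), and Trav4-3 in 34 of 260 and 0 of 97. All 19 barcodes with Trav10 in library 1 were CD44-high, of 120 CD44-high and 26 CD44-low barcodes with a Trav segment. In CD44-low CD8 barcodes the shares of Trbv1 were 8.16%, 4.55% and 6.50% in libraries 1, 2 and 3, with overlapping intervals. In library 3, by contrast, Trav16 was found in 4 of 92 CD44-high (4.35%) and 16 of 175 CD44-low barcodes (9.14%), whose intervals overlapped.

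The leading alpha and beta segments were found in the same cells. In the CD8 gate of library 2, 28 barcodes with Trav16 also had a Trbv segment, and in 24 of them it was Trbv1 (85.7%, 67.3 to 96.0%), against 68 of 354 barcodes without Trav16 (19.2%, 15.2 to 23.7%). Of 19 barcodes with Trav4-3 and a Trbv segment, 15 had Trbv1 (78.9%, 54.4 to 93.9%), against 77 of 363 without Trav4-3 (21.2%, 17.1 to 25.8%). Of 7 barcodes with Trav19 and a Trbv segment, 6 had Trbv3 (85.7%, 42.1 to 99.6%) and 3 had Trbv15, some of them both, against Trbv3 in 54 of 375 without Trav19 (14.4%, 11.0 to 18.4%). In library 1 all 8 barcodes with Trav10 and a Trbv segment had Trbv13-3 (63.1 to 100%), against 16 of 157 without Trav10 (10.2%, 5.94 to 16.0%). Trbv1 of library 2 thus had 2 main partners, Trav16 in 24 and Trav4-3 in 15 of the 48 Trbv1 barcodes with a Trav segment.

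In library 3 the 6 barcodes with Trbv1 and a Trav segment held 6 different Trav segments, and the 8 barcodes with Trav16 and a Trbv segment held 6 different Trbv segments, led by Trbv13-2 in 3. Trav14d-3-dv8, frequent in the CD4 gate of library 3, was found with 15 different Trbv segments in 18 barcodes. Over barcodes with exactly 1 segment of each family, the most frequent pair was Trbv1 with Trav16 in library 2 (22 of 94 CD8 barcodes, 23.4%) and Trbv13-3 with Trav10 in library 1 (8 of 44, 18.2%). In library 3 it was Trbv12-2 with Trav5-4 (3 of 77 CD8 barcodes, 3.9%), where 68 of 72 pairs were found once. In the CD4 gate the most frequent pairs held 3 of 37, 2 of 74 and 5 of 137 barcodes. Joining segments had no UMI in gated barcodes, so that a shared pair of V segments does not show a shared clone.

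**Figure D4:**
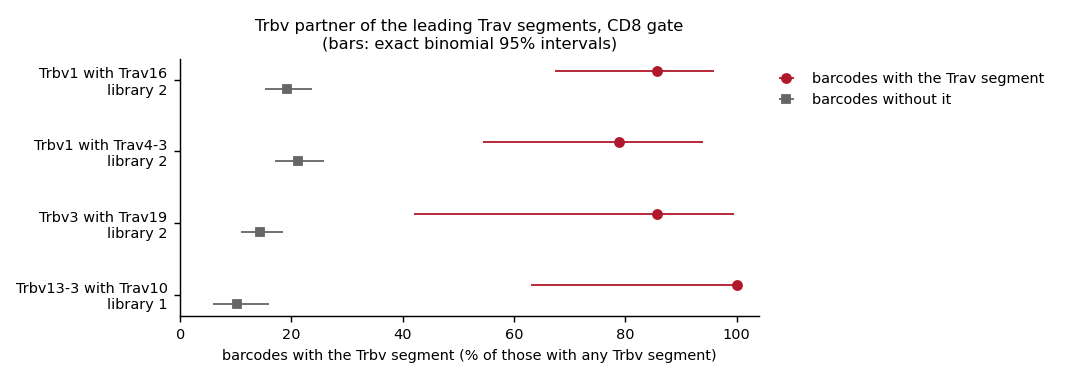
Share of CD8 gate barcodes with the named Trbv segment (percent of those with any Trbv segment) among barcodes with the named Trav segment (red circles) and among barcodes without it (grey squares), with bars for exact binomial 95% intervals. Trbv1 was found in 85.7% of Trav16 and 78.9% of Trav4-3 barcodes of library 2, and in 19.2% and 21.2% of the barcodes without them.

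The constant genes of the receptor differed too. Trbc1 and Trbc2 are the 2 constant genes of the beta chain, near-identical copies between which reads can be split, so their values are uncertain. In CD44-high CD8 barcodes Trbc1 made up 9.60% of Trbc1 and Trbc2 UMIs with Trav16 (64 barcodes), 0.92% with Trav4-3 (34 barcodes) and 12.2% with Trbv3 (54 barcodes) in library 2, against 26.8% in the 224 barcodes with another segment and none of the 5 leading segments of library 2. With Trav10 in library 1 it made up 64.1% (19 barcodes), against 30.9% in 173 barcodes with another segment. The barcodes with a leading segment were deeper, with median depths of 9796, 8872, 8561 and 8857 UMIs, against 7736 UMIs in library 2 and 6854 UMIs in library 1 for the rest. All barcodes were therefore also thinned to 4000 RNA UMIs. A Trbc1 UMI was then found in 0 of 33 barcodes with Trav4-3 (which allows a share of up to 9.09%) and 15.1% with Trbv3, against 45.1% of the rest, and in 18 of 19 with Trav10, against 57.1%. With Trav16 it was found in 32.3%, and the intervals overlapped. Trac, the constant gene of the alpha chain, was found in 37.1% (25.2 to 50.3%) of thinned barcodes with Trav16, against 75.7% (69.3 to 81.4%) of the rest, while with Trav4-3 (69.7%) and Trbv3 (79.2%) the intervals overlapped with those of the rest.

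What these cells shared beyond their segments was looked for in the other genes, with sets chosen after their values were seen. Counted at full depth, where barcodes with a leading segment were deeper than the rest, as at least 2-fold with intervals apart, 1.35% of genes were higher and 0.157% lower in barcodes with Trav16 than in the rest of library 2, and 0.75% and 0.15% in those with Trav4-3. With Trbv3 they were 0.531% and 0.0787%, and with Trav10 in library 1 they were 1.31% and 0.0318%. Of the leading genes of each set, 16 of 24 with Trav16, 14 of 23 with Trav4-3, 7 of 24 with Trbv3 and 17 of 24 with Trav10 had intervals apart once thinned to 4000 UMIs. Each list holds the segment that defines its set, which the rest lacks by choice. With Trav16 and Trav4-3 the list also holds Trbv1, which the rest lacks by choice too. The lists were picked from the same barcodes at full depth, so these counts are not an independent check of the genes. Of a list of 9 memory and effector genes, once thinned, Gzmm was apart with Trav16, Trbv3 and Trav10 and Cxcr3 with Trav4-3 (57.6%, against 31.1% of the rest). Ccl5, Cd44, Eomes, Gzmk, Il2rb, Ly6c2 and Nkg7 then overlapped with the rest in all 4 sets. At full depth Gzmm was apart in all 4 sets and Gzmk with Trav10. Cxcr3 was then apart with Trav16 (75.0%, against 49.1%) and Trbv3 (72.2%, against 49.1%), but not with Trav4-3. The values that follow are those of thinned barcodes, with the values at full depth in the same order in brackets. Gzmm, a granzyme of cytotoxic lymphocytes, was found in 72.6% of barcodes with Trav16 and 34.5% of the rest [87.5% and 45.1%], in 60.4% with Trbv3 and 34.5% of the rest [87.0% and 45.1%], and in 73.7% with Trav10 and 31.4% of the rest [89.5% and 37.0%]. With Trav4-3 it was found in 57.6% [82.4%], and the intervals overlapped once thinned. Dapl1 was found in 61.3% of barcodes with Trav16 [82.8%] and 60.6% with Trav4-3 [79.4%], against 18.4% of the rest [24.6%]. With Trbv3 it was found in 17.0% [24.1%] and with Trav10 in 0 of 19 [10.5%], and intervals overlapped with those of the rest.

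The next genes were chosen from the leading genes after their values were seen. Klra5 and Klra1, of the Ly49 family, were found in 42.4% and 39.4% of barcodes with Trav4-3, against 0.485% and 4.37% of the rest [67.6% and 55.9%, against 0.893% and 4.91%]. Klra7, a further Ly49 receptor, and Klri2 were found in 52.6% and 47.4% of barcodes with Trav10, against 6.41% and 0.641% of the rest of library 1 [84.2% and 63.2%, against 8.09% and 0.578%]. Klrb1c, which encodes NK1.1, was found in 47.4% of barcodes with Trav10, against 3.21% [57.9%, against 6.36%], and Klrk1, which encodes NKG2D, in 89.5%, against 33.3% [94.7%, against 41.6%]. Klrc2 was found in 63.6% with Trav4-3, against 28.2%, and in 57.9% with Trav10, against 24.4%. Once thinned, intervals overlapped for Klrc1 with Trav4-3 (36.4%, against 20.9%), Klre1 with Trav10 (36.8%, against 20.5%) and Klra3 with Trbv3 (20.8%, against 8.74%).

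Gzmb, which encodes granzyme B, was found in 30.6% of barcodes with Trav16 [62.5%] and 48.5% with Trav4-3 [58.8%], against 5.34% of the rest [8.48%]. Lgals3, which encodes galectin-3, was found in 53.2% of barcodes with Trav16, against 8.74% [75.0%, against 16.5%]. Ccr2, a chemokine receptor, was found in 31 of 62, 18 of 33 and 28 of 53 barcodes with Trav16, Trav4-3 and Trbv3, against 21.4% of the rest [73.4%, 67.6% and 75.9%, against 30.8%]. Itga4, the alpha 4 integrin, was lower, in 4.84% of barcodes with Trav16 and 9.09% with Trav4-3, against 30.6%, and in 5.26% with Trav10, against 44.2%. Of the exhaustion genes Pdcd1, Tox, Lag3, Tigit and Havcr2, none had intervals apart from those of the rest in any of the 4 sets at 4000 UMIs or at full depth. Once thinned, all but Tox were found in 0 barcodes of each set. This allows shares of up to 4.84%, 9.09%, 5.66% and 15.8% with Trav16, Trav4-3, Trbv3 and Trav10. The rest held these genes in 0.485 to 2.91% in library 2 and 1.28 to 8.33% in library 1, so that a lower share could not be told. Tox was found in 8.06%, 3.03% and 5.66%, against 10.7%, and with Trav10 in 10.5%, against 29.5%. Gzmk was found in 0, 1 and 1 thinned barcodes with Trav16, Trav4-3 and Trbv3, against 12 of 206 of the rest, and in 0 of 19 with Trav10, against 36 of 156, and intervals were apart only at full depth and only with Trav10 [0%, against 28.9%]. A cell counted among the rest may carry the same segment without a UMI of it.

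**Figure D5:**
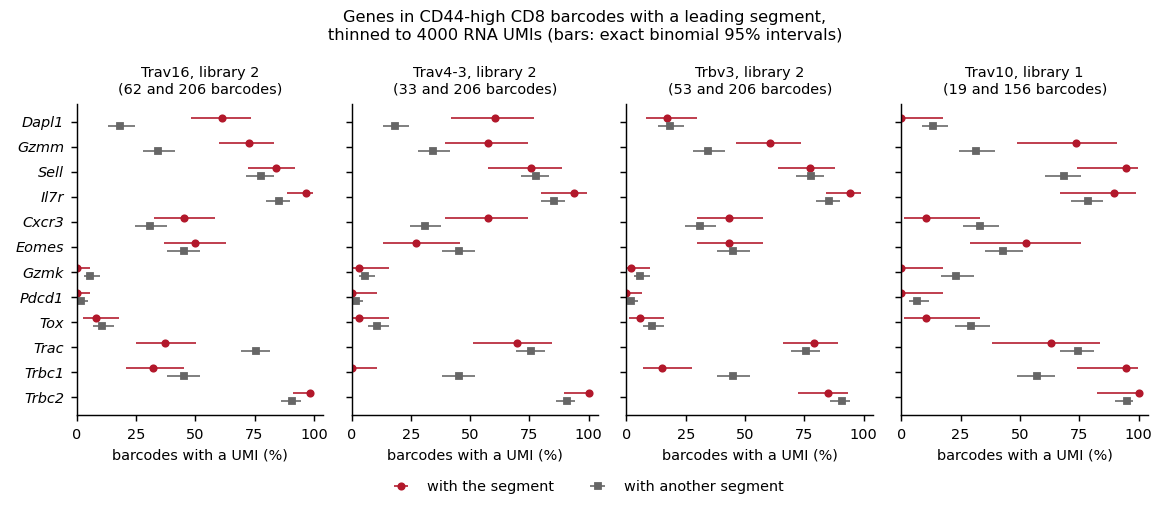
Share of CD44-high CD8 barcodes with a UMI of each gene (percent) after thinning to 4000 RNA UMIs, in barcodes with the named leading segment (red circles) and in barcodes of the same library with another segment (grey squares), with bars for exact binomial 95% intervals. Dapl1 was found in 61.3% and 60.6% of barcodes with Trav16 and Trav4-3, against 18.4% of the rest, and Trbc1 in 0 of 33 with Trav4-3 and in 94.7% with Trav10.

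Between the gates, segments differed in the same direction in every library about as often as all genes did. By a ratio of at least 1.5 in the share of gate barcodes in every library, 4 of the 79 members with at least 5 gated barcodes (5.06%) were higher in the CD8 than in the CD4 gate, where 6.13% of all genes were, and 3 (3.80%) were lower, where 2.44% of all genes were. By intervals apart in every library, 0 members were higher and 0 lower, where 12.2% of all genes were higher and 0.62% lower in the deeper CD8 barcodes. Single segments can hardly meet this rule, since they were found in few barcodes of a gate. Trbv12-2, for one, was found in 1.62 to 3.3% of CD8 and 0.721 to 0.866% of CD4 gate barcodes. The 4 higher in the CD8 gate were Trbv12-2, Trav16, Trav8d-2 and Trav8n-2, and the 3 lower were Trbv2, Trbv13-2 and Trbv31. At 2000 UMIs none of the 4 was left, and Trbv2 was not among those lower.

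Trbv12-2 was found in 17 (10.3%), 19 (4.97%) and 27 (8.82%) CD8 barcodes of libraries 1, 2 and 3, and in 3 (1.97%), 7 (2.25%) and 12 (2.44%) CD4 barcodes. Trbv12-1, the member nearest to it in sequence (88.3% identical), was found in 3, 14 and 19 CD8 and 3, 3 and 8 CD4 barcodes. Trbv31, which lies apart from the other Trbv genes beyond the constant genes, was found in 3 (1.82%), 5 (1.31%) and 6 (1.96%) CD8 and 8 (5.26%), 18 (5.79%) and 22 (4.47%) CD4 barcodes. Trbv2 held 10.3%, 6.54% and 7.84% of CD8 barcodes with a Trbv segment, against the CD4 shares above, and Trbv13-2 held 10.3%, 8.12% and 8.82%. Trav16 was found in 2 (2.20%), 11 (5.19%) and 6 (1.59%) CD4 barcodes, so that its CD8 share was 4.05, 3.89 and 4.71 times the CD4 share. Trav14d-3-dv8 leaned the other way in libraries 2 and 3, with 10 (2.80%) and 6 (2.25%) CD8 barcodes, but not in library 1, with 7 (4.79%). Trav8d-2 and Trav8n-2 rested on 9 and 12 CD8 and 4 and 6 CD4 barcodes.

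The order of the segments was shared by libraries and gates to a degree that differed by chain. Over the 22 Trbv segments the shares of CD4 barcodes of libraries 2 and 3 had a Pearson r of 0.972 and a Spearman rho of 0.969. For CD8 barcodes of libraries 2 and 3 these were 0.592 and 0.822, and for libraries 1 and 2 they were 0.271 and 0.732. Over the 62 Trav segments the same 3 pairs had Spearman rho of 0.631, 0.641 and 0.542. These are correlations across genes that share 1 annotation and 1 mapping, with many shares resting on a few barcodes. Along the chromosome, Trbv shares had a negative rank correlation with position in every gate and library (-0.35 to -0.59) and Trav shares a positive one (0.19 to 0.44). Segments nearer the start of the Trbv block and nearer the end of the Trav block thus tended, in part weakly, to larger shares. The -0.59 was that of the CD8 gate of library 2, where Trbv1, the first Trbv gene, led. The d and n copies, whose reads are uncertain, lie before most unmarked Trav members, and their part was not tested. The d copies were 12 members of 39 rows and the n copies 9 of 34. At least 1 d copy was found in 11.6%, 8.12% and 9.36% of CD8 and 8.79%, 15.6% and 18.6% of CD4 barcodes with a Trav segment, and Trav14d-3-dv8 was the most frequent of them.

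A pair of alpha segments marks innate-like T cells whose alpha chain hardly varies. Trav11 is used by invariant NKT cells, which depend on the transcription factor Zbtb16 and carry a CD1d-restricted receptor, and Trav1 by MAIT cells. Trav11 was found in 24 T cell barcodes (5, 8 and 11 by library), of which 1 lay in the CD8 gate, 12 in the CD4 gate and 11 in neither. Zbtb16 had a UMI in 7 of the 24, and in 1.11% of all T cell barcodes, and Klrb1c in 11. Trav1 was found in 7 T cell barcodes, 0 of which had a Zbtb16 UMI. Segments with dv in the symbol can also join the delta chain. Over the 9 such members, 5.99% of their T cell barcodes had a UMI of Trdc, the constant gene of the delta chain, against 2.17% over the 53 other Trav members and 2.85% over the Trbv members. Among these 9, the most Trdc barcodes were found with Trav21-dv12 (5 of 27), Trav15-2-dv6-2 (4 of 13) and Trav13-4-dv7 (3 of 19), while Trav14d-3-dv8 and Trav6-7-dv9 had it in 1 of 96 and 1 of 87.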

How the data were processed

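Spleen cells were measured with a 10x Genomics 3′ kit with antibody tags (v3.1). The authors deposited raw UMI counts (whole numbers) of 31053 genes and 34 antibodies over 29005 barcodes, made with Cell Ranger 5.0.1 (per the file headers) on mm10. The libraries held 24569928, 36599055 and 40949298 RNA UMIs. Whether aggregation evened out depth: not given in the sources used here. Barcodes with 300 to 5000 genes, at most 10% mitochondrial UMIs and a Cd3 UMI were kept. The members and lists were chosen with earlier results of these data known. A share is the number of barcodes with a segment over those with any segment of its family, by gate and library. Named segments were the 12 per family found in most gated barcodes, those called between gates or libraries, the 5 per family and gate with the widest library ratio, and Trav11, Trav1, dv and constant segments. CD44 counts, as ln(count + 1), were split into 2 classes by a Gaussian mixture (scikit-learn 1.9.0) at a posterior of 0.5. Sequences came from GENCODE vM21 transcripts. The call rules and the evenness interval were tested on simulated data. Analyses used Python 3.11.15 with numpy 2.4.6, scipy 1.17.1 and pandas 2.3.3. Alternatives changed the filters, the counting, the fold and the libraries. No group was compared and no p-value computed.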

Additional observations from a re-analysis of the deposited data

How the results depend on the processing

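The share of barcodes with a segment depended on depth and filters. With UMIs thinned to 2000 (chosen after seeing the data) Trbv was found in 10.7% of CD8 and 19.4% of CD4 barcodes and Trav in 11.4% and 14.2%. With no filter on genes or mitochondrial share these were 29.7% and 32.3% for Trbv and 26.6% and 23.55% for Trav. In CD8 barcodes, Trbv and Trav were found in 29.5% and 26.7% with no Cd3 UMI required and in 28.0% and 24.2% between 2000 and 6000 UMIs. Segments higher in the CD8 gate numbered 2 at a fold of 2, 2 without Cd79a, Ms4a1 or Trdc barcodes, 2 with Trav copies summed, 10 without library 1, 7 without library 2 and 0 when thinned. Those lower numbered 1 at a fold of 2, 5 with UMIs summed, 7 without library 1, 5 without library 2 and 5 when thinned. Called between libraries in the CD8 gate was 1 without library 2 (chosen after seeing the data), and in the CD4 gate 4 with UMIs summed and 1 with single-segment barcodes, without Cd79a, Ms4a1 or Trdc barcodes, or with copies summed. With Trav copies summed by their first number the effective number of Trav segments in the CD8 gate was 11.4, 9.76 and 11.55 in libraries 1, 2 and 3. Of 197 values under alternatives 159 moved by less than their interval or 1.5 times. The cause of the other changes was not tested. Counts limit precision: 91 to 492 barcodes stood behind a family's shares in a gate and library.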
